A study of Homo sapiens with 4 samples.

Results

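The genes followed here were 10 members of the YAP-TEAD pathway, taken by symbol from the 25192 genes in the deposited tables. They were the kinases LATS1 and LATS2, the angiomotin family scaffold AMOTL2, the coactivators YAP1 and WWTR1 (the gene of TAZ), the DNA-binding factors TEAD1 and TEAD4, and the target genes CYR61 (CCN1), CTGF (CCN2) and ANKRD1. All 10 were found under these symbols, and all 10 passed the filter on low counts. RNA had been sequenced from A549, a human lung adenocarcinoma cell line, 48 h after infection with virus. There were 2 libraries of cells that received the control empty virus (EV) and 2 of cells that received a virus carrying FCN3, a secreted lectin of the complement system. By the study's methods both are retroviruses made from a vector that also encodes GFP, and the FCN3 protein carried a V5 tag, so the groups share transduction and GFP.

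The Hippo pathway restrains cell growth through a chain of kinases in which LATS1 and LATS2 phosphorylate YAP and TAZ and thereby keep them out of the nucleus. When this restraint is weak, YAP and TAZ enter the nucleus, bind TEAD factors and switch on target genes, among them CYR61, CTGF and ANKRD1. LATS2 and AMOTL2 are themselves target genes that feed back on YAP and TAZ. The activity of YAP and TAZ is set largely by phosphorylation and location of the proteins, which RNA levels do not show.

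The promoters of CTGF and ANKRD1, the members with the largest difference between EV and FCN3-virus-transduced cells, are shown because TEAD factors recognise GGAATG, which reads as CATTCC on the opposite strand. Each line gives the 250 bases before the start of the gene on its own strand, from RefSeq on GRCh38.p14, with every GGAATG or CATTCC in capitals. AMOTL2, a target gene with no such difference, is shown for comparison by the one of its 2 listed start sites that has the motif.
CTGF, minus strand, chr6:131951373-131951622: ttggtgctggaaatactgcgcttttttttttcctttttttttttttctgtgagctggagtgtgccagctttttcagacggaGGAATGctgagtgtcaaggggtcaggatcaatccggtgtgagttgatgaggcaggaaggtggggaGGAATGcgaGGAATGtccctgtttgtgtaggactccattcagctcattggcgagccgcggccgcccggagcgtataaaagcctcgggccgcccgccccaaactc
ANKRD1, minus strand, chr10:90921088-90921337: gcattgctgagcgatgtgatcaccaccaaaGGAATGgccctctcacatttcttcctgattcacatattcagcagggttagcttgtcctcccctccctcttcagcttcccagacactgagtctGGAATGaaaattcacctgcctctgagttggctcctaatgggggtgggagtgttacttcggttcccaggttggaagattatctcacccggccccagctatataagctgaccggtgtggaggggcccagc
AMOTL2, minus strand, chr3:134374448-134374697: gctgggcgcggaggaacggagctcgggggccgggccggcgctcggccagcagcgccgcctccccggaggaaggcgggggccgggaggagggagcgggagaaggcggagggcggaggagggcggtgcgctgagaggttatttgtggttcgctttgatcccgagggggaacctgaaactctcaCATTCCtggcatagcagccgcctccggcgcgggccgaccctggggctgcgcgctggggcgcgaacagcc

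The CTGF window held 3 copies of the motif, starting 169, 104 and 95 bases before the gene's start, and the ANKRD1 window held 2, at 220 and 128 bases. AMOTL2 had a single copy 69 bases before the start, and YAP1 a single copy 162 bases before its start. Promoter sequences were matched for 7 of the 10 members, of which LATS1, LATS2 and WWTR1 had no copy in their windows, while CYR61, TEAD1 and TEAD4 had no entry. Of all 35116 windows of this length in the table, 11.9% held the motif at least 1 time on either strand, 0.94% at least 2 times and 0.0826% at least 3 times. The pattern TGANTCA, with N any base, is looser than the AP-1 motif, which has C or G at N. It was found in the ANKRD1 window 195 bases before the start, apart from the TEAD motifs, and in 1 of the 2 LATS1 windows. These copies read TGATTCA in ANKRD1 and TGAATCA in LATS1, so neither is the stricter AP-1 motif. Of all windows 6.57% hold the looser pattern, searched on both strands. Such matches describe the letters and do not show binding in these cells.

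Expected counts, the read numbers that RSEM assigns to each gene, summed to 35733735 and 35031565 in the replicate 1 libraries of EV and FCN3 and to 16353554 and 20136068 in the replicate 2 libraries, so replicate 1 was the deeper library of both groups. FCN3 had at most 1 count in the EV libraries and at least 448352 in the FCN3 libraries. Of 9 lung epithelial markers, the keratin genes KRT8 and KRT18 were between 1612 and 2789 TPM (length-normalized transcripts per 1000000) in every library, and NKX2-1 and the 3 surfactant genes did not exceed 0.06 TPM, so that A549 cells here had keratins without the alveolar markers. EPCAM was at 2.66 and 3.65 TPM in EV and 1.09 and 1.61 TPM in FCN3 libraries, CDH1 at 6.06 and 9.53 against 3.35 and 6.79 TPM, and KRT19 in the other direction at 32.6 and 52.4 against 87.2 and 97.9 TPM (edgeR adjusted p = 0.12, 0.45 and 0.040). The part of these markers in the results was not tested. Of 10 markers of blood, endothelial and fibroblast cells, CD68 and COL1A1 alone reached 1 TPM in every library, and the sum of this list was 37.4 to 43.9 TPM in EV and 57.8 to 64.7 TPM in FCN3 libraries, most of it CD68, which also marks lysosomes. CD3E, PECAM1 and DCN were at 0 in every library, and the part of this list was not tested either.

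In EV cells the most abundant member per transcript length was CYR61, a secreted matricellular protein, at 117 ± 18.6 TPM (SD, n = 2). AMOTL2 at a mean of 75.4 and WWTR1 at 71.6 ± 9.07 TPM followed and overlapped each other. TEAD1 came next at 54.8 ± 4.85 TPM and TEAD4 at 45.2 ± 0.141 TPM. YAP1, CTGF and ANKRD1 lay at 30.9 ± 6.21, 26.0 ± 7.01 and 20.1 ± 8.37 TPM, each overlapping the next in this order. The kinases were lowest, LATS2 at 11.1 ± 0.863 and LATS1 at 8.57 ± 1.62 TPM. WWTR1 had more transcripts than YAP1 in all 4 libraries, by 2.21 to 2.66 times, and TEAD1 more than TEAD4 by 1.03 to 1.29 times.

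In FCN3-virus-transduced cells the order changed through ANKRD1 and CTGF. ANKRD1 went from the eighth place to the second, at 93.0 ± 41.1 TPM, where its range overlapped those of CYR61 above it and WWTR1 below it. CTGF reached 49.4 ± 14.1 TPM and overlapped TEAD1, at 41.5 ± 0.997 TPM. The ratio of CYR61 to ANKRD1 transcripts was 7.33 and 5.01 in the EV libraries and 1.80 and 1.00 in the FCN3 libraries.

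The first question was whether the pathway differed between FCN3-virus-transduced and EV cells. None of the 10 members was called at an FDR of 0.01 by edgeR's quasi-likelihood test, against 0.965% of the 14099 tested genes, 0.738% higher and 0.227% lower. At an unadjusted p under 0.05 the same test gave 3 of 10 members, ANKRD1, CTGF and TEAD1, against 25.1% of all tested genes. DESeq2, the tool named in the study's methods, called ANKRD1 and CTGF, both higher, where it called 4.45% of the genes it tested as higher. These fits left out the replicate number. With the number as a block, edgeR called 4 members, ANKRD1, CTGF and WWTR1 higher and TEAD1 lower. That fit called 5103 of the 14099 tested genes, and the labels do not say what the numbers share. The groups stood apart without overlap for 4 members, ANKRD1 and CTGF above and TEAD1 and TEAD4 below, against 54.5% of all tested genes, so standing apart in this way was no more frequent among the members. Levels below are in CPM, TMM-normalized counts per 1000000.

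**Figure D1:**
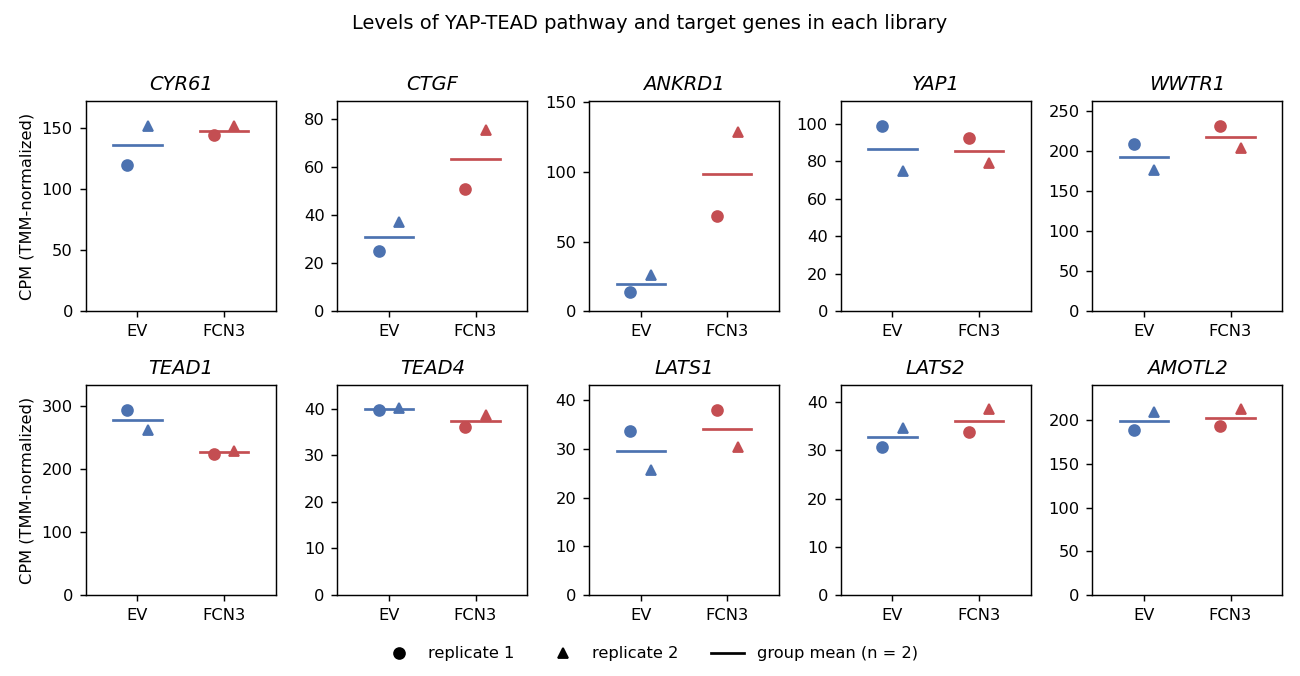
Level of each member in each library in CPM on axes that start at 0, with circles for replicate 1, triangles for replicate 2 and lines for group means (n = 2). The FCN3 libraries stand above the EV libraries for CTGF and ANKRD1. Replicate 2 stands above replicate 1 in both groups for these genes and for CYR61, LATS2, AMOTL2 and TEAD4.

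ANKRD1 encodes an ankyrin repeat protein known from heart muscle and lies at chr10:92671853-92680844 (GRCh37, the build of all gene positions given here, minus strand). Its level was 13.9 and 25.8 CPM in EV replicates 1 and 2, and 68.4 and 129 CPM in FCN3 replicates 1 and 2. The groups did not overlap, and the lower FCN3 library was still well above the higher EV library. The fitted level was 5.07-fold higher with the FCN3 virus, a log2 fold change of 2.34 (standard error 0.41, 95% interval 1.31 to 3.37), which ranked 81 from the top of all tested genes. The adjusted p was 0.035 in edgeR's quasi-likelihood test and 0.0023 in DESeq2. Between libraries of the same number the log2 difference was 2.29 in replicate 1 and 2.31 in replicate 2. Without EV replicate 2 the log2 fold change was 2.81, and without FCN3 replicate 1 it was 2.71. Without EV replicate 1 it was 1.94, and without FCN3 replicate 2 it was 1.81. Each of these fits leaves the replicate numbers unequal between the groups, and ANKRD1 was lower in replicate 1 of both groups.

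CTGF, which encodes a secreted matricellular protein and lies at chr6:132269316-132272512 (minus strand), had the next largest difference. It was at 24.9 and 37.0 CPM in EV replicates 1 and 2 and at 50.8 and 75.4 CPM in FCN3 replicates 1 and 2. Both FCN3 libraries were higher than both EV libraries. The fitted level was 2.05-fold higher with the FCN3 virus (log2 fold change 1.04, standard error 0.26, 95% interval 0.38 to 1.69). The adjusted p was 0.080 in edgeR's quasi-likelihood test and 7.3e-04 in DESeq2. The same-numbered libraries differed by 1.02 in replicate 1 and 1.02 in replicate 2 on the log2 scale.

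CYR61 (chr1:86046444-86050272, plus strand) belongs to the CCN family with CTGF but had no such difference. The EV libraries were at 120 and 152 CPM and the FCN3 libraries at 145 and 152 CPM, so the groups overlapped. The log2 fold change was 0.12 (standard error 0.13, 95% interval -0.20 to 0.45, edgeR adjusted p = 0.61). Same-numbered libraries differed by 0.27 in replicate 1 and by -0.0049 in replicate 2. Its interval does not overlap that of ANKRD1 but overlaps that of CTGF (0.38 to 1.69), and differences between these genes' changes were not tested. These intervals come from the fit without the replicate number. With the number as a block the log2 fold change was 0.13 (standard error 0.057) for CYR61 and 1.03 (standard error 0.068) for CTGF. Other members of the CCN family were scarce: of 4, WISP2 alone averaged above 1 on the log2 CPM scale, at 8.64 and 18.6 CPM in EV and 5.93 and 11.8 CPM in FCN3 libraries (log2 fold change -0.60, edgeR adjusted p = 0.49). Below that level, and named after their values were seen, WISP1 and NOV went in opposite directions. WISP1 was at 1.70 and 2.33 CPM in EV and 0.501 and 0.654 CPM in FCN3 libraries (-1.78, edgeR adjusted p = 0.054). NOV was higher in FCN3 libraries (1.31, edgeR adjusted p = 0.17).

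The coactivators differed little between the groups. YAP1 (chr11:101981178-102104155, plus strand) was at 98.7 and 74.8 CPM in EV and 92.2 and 79.0 CPM in FCN3 libraries. The log2 fold change was -0.02 (95% interval -0.42 to 0.38, adjusted p = 0.95 in edgeR's quasi-likelihood test), and the FCN3 libraries lay inside the range of the EV libraries. WWTR1 (chr3:149235022-149454501, minus strand) was at 209 and 177 CPM in EV and 231 and 204 CPM in FCN3 libraries. Its log2 fold change was 0.18 (95% interval -0.12 to 0.47, adjusted p = 0.42 in the same edgeR test), with overlapping groups.

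Both TEAD factors, which carry YAP and TAZ to DNA, were lower in the FCN3 libraries without overlap. TEAD1 (chr11:12695968-12966284, plus strand) was at 294 and 262 CPM in EV replicates 1 and 2 and at 224 and 228 CPM in FCN3 replicates 1 and 2. Its log2 fold change was -0.30 (standard error 0.09, 95% interval -0.52 to -0.07), with an adjusted p of 0.12 in edgeR and 0.10 in DESeq2. TEAD4 (chr12:3068496-3149842, plus strand) was at 39.7 and 40.0 CPM against 36.1 and 38.7 CPM. Its groups stood apart by about 1 CPM, and the log2 fold change of -0.09 had an interval from -0.34 to 0.15 (edgeR adjusted p = 0.61).

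The kinases and the scaffold overlapped between the groups. LATS1 (chr6:149979289-150039241, minus strand) was at 33.6 and 25.6 CPM in EV and 37.9 and 30.4 CPM in FCN3 libraries (log2 fold change 0.20, 95% interval -0.25 to 0.65). LATS2 (chr13:21547175-21635725, minus strand) was at 30.8 and 34.6 against 33.7 and 38.5 CPM (0.14, 95% interval -0.17 to 0.45). AMOTL2 (chr3:134074189-134094321, minus strand) was at 188 and 210 against 193 and 213 CPM (0.03, 95% interval -0.22 to 0.28). Adjusted p-values of these genes in edgeR ranged from 0.53 to 0.89. LATS2 and AMOTL2 are also induced by YAP and TAZ. The intervals of LATS1 and LATS2 overlap that of CTGF and the interval of AMOTL2 does not. These intervals too come from the fit without the replicate number. With the number as a block the log2 fold change was 0.20 (standard error 0.076) for LATS1 and 0.14 (standard error 0.073) for LATS2. In that fit it was 1.03 (standard error 0.068) for CTGF. Differences between the changes of these genes were not tested.

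**Figure D2:**
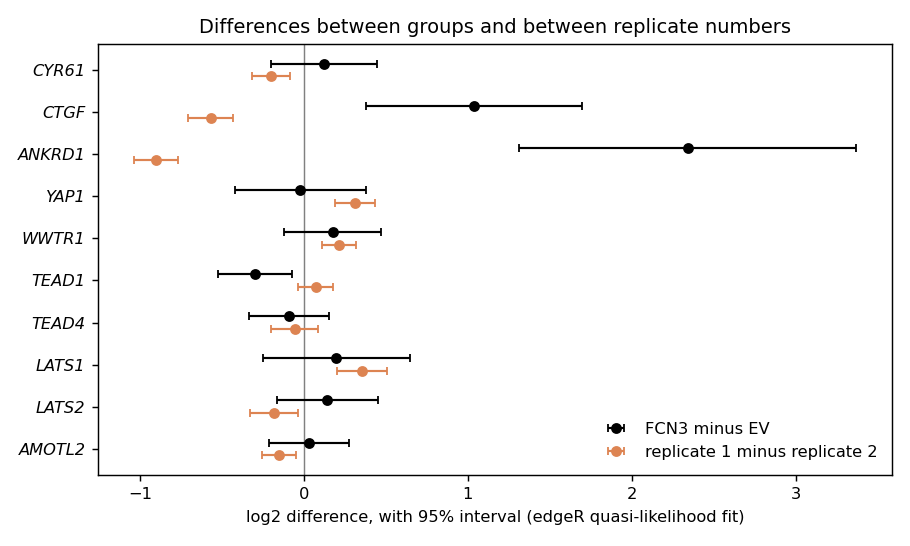
Log2 difference of each member between groups (black, FCN3 minus EV) and between replicate numbers (orange, replicate 1 minus replicate 2), with 95% intervals from edgeR's quasi-likelihood fits. ANKRD1 at 2.34 and CTGF at 1.04 lie farthest right, and the same genes, at -0.90 and -0.57, lie farthest left between replicates.

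Other genes of the pathway were then described by lists of their roles. Of 19 genes of the kinase cassette and its activators, edgeR called 1 as higher and 0 as lower, against 0.738% and 0.227% of all tested genes. Their median log2 fold change was 0.13 beside 0.02 for all tested genes. The called gene was FRMD6, a FERM protein that activates the cassette, which rose from 65.0 and 59.0 CPM in EV to 158 and 141 CPM in FCN3 libraries (log2 fold change 1.27, standard error 0.10, edgeR adjusted p = 0.0056). WWC1 (KIBRA), another upstream activator, was at 216 and 210 CPM in EV and 130 and 140 CPM in FCN3 libraries, without overlap (-0.66, edgeR adjusted p = 0.016). TAOK3, a kinase upstream of the cassette, and MOB1B, a LATS cofactor, had log2 fold changes of 0.40 and 0.36 with edgeR adjusted p of 0.074 and 0.18.

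Of 17 tested genes for proteins that bind or hold back YAP and TAZ or partner with TEAD, 0 were called by edgeR. Of all tested genes 0.965% were called, and the median log2 fold change of the 17 was 0.04. TEAD2, a further TEAD factor, was at 19.9 and 26.7 CPM in EV and 12.6 and 15.3 CPM in FCN3 libraries (log2 fold change -0.74, standard error 0.20, edgeR adjusted p = 0.089). TEAD3, in contrast, had overlapping groups at a mean of 6.73 and 7.64 CPM. VGLL4, which competes with YAP for TEAD, was at 34.7 and 32.4 against 52.5 and 48.9 CPM (0.59, edgeR adjusted p = 0.032), and AJUBA, a LIM protein that inhibits LATS, at 182 and 185 against 265 and 255 CPM (0.50, edgeR adjusted p = 0.024). PTPN14, a phosphatase that binds YAP, had overlapping groups and a log2 fold change of 0.45 (edgeR adjusted p = 0.42). AMOT had at most 7 counts in a library, and VGLL1 and VGLL2 at most 1.

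Beyond the members, 17 further YAP and TAZ target genes were tested. Of these edgeR called 1 as higher and 0 as lower, against 0.738% and 0.227% of all tested genes. The median log2 fold change of the 17 was 0.08, and 12 of 17 were positive against 7316 of the 14099 tested genes. The called gene was GADD45A, which is also known as a gene induced by p53 and by ATF4. It rose from 31.4 and 36.3 CPM in EV to 98.2 and 113 CPM in FCN3 libraries (log2 fold change 1.64, standard error 0.12, edgeR adjusted p = 0.0045). TGFB2, a growth factor, was at 97.1 and 119 against 142 and 159 CPM (0.48, edgeR adjusted p = 0.088), and MYOF, a membrane repair protein, at 897 and 842 against 1237 and 1146 CPM (0.45, edgeR adjusted p = 0.048). FOXF2, a transcription factor, was lower, at 27.3 and 26.1 against 19.1 and 17.2 CPM (-0.55, edgeR adjusted p = 0.056). None of these 3 overlapped between the groups, as was so for 8 of the 17 genes and for 54.5% of all tested genes. The promoter table held 12 of the 17 genes, of which 5 had the TEAD motif in the 250 bases before a start, namely AXL, FOXF2, PTPN14, NUAK2 and TGFB2. A gene was counted if any of its start sites had the motif. The 11.9% of all windows that held it is a share of windows and not of genes, so the 2 are not directly comparable. MYOF had no match in its window, and GADD45A had no entry.

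Several YAP target genes also answer to SRF with its coactivator MRTF, which respond to the state of the actin cytoskeleton, so targets of SRF and MRTF were set beside them. Of 18 tested genes 0 were called between the groups by edgeR, against 0.965% of all tested genes. The median log2 fold change of the 18 was 0.06. ACTA2, smooth muscle actin, was at 14.7 and 17.3 CPM in EV and 26.8 and 29.9 CPM in FCN3 libraries (log2 fold change 0.83, edgeR adjusted p = 0.031). TAGLN, an actin-binding protein, overlapped between the groups, at 24.4 and 76.2 against 46.9 and 130 CPM (0.84, edgeR adjusted p = 0.50). The list was of mixed direction: 6 of 18 genes did not overlap, 3 higher and 3 lower in FCN3 libraries, against 54.5% of all tested genes.

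**Figure D3:**
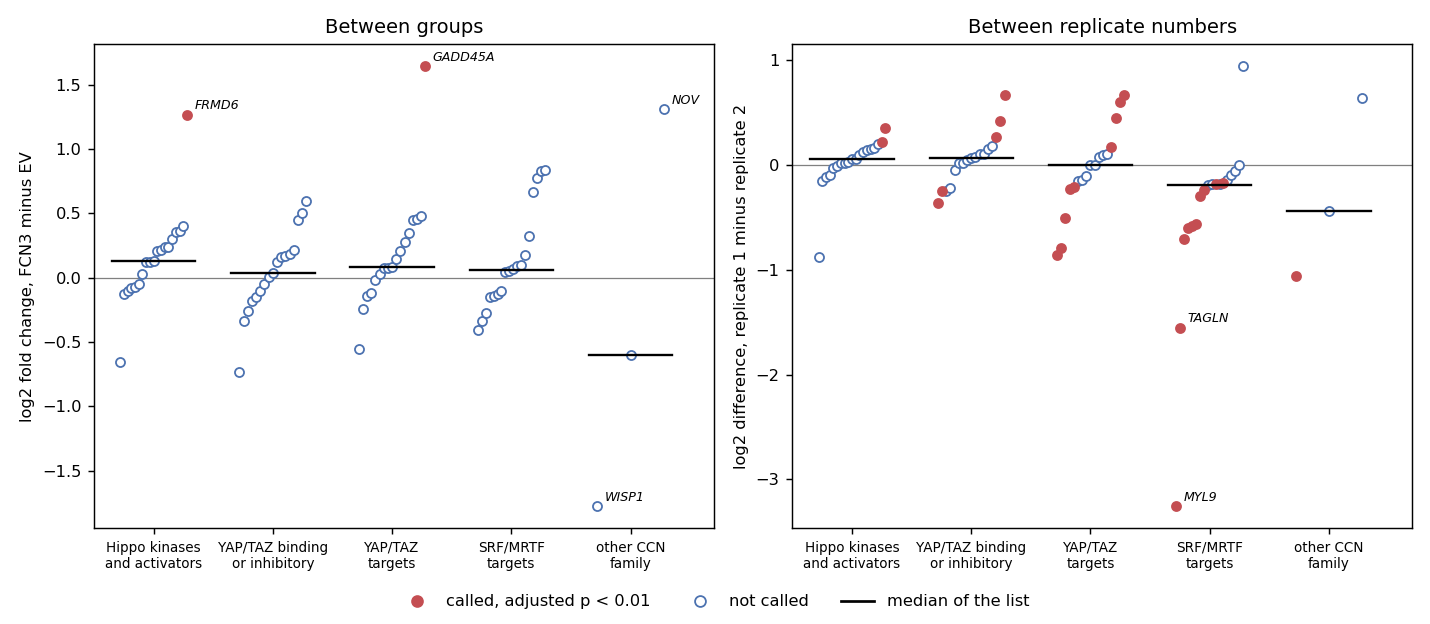
Log2 difference of each tested gene in 5 lists between groups (left, FCN3 minus EV) and between replicate numbers (right, replicate 1 minus replicate 2), with filled points for genes called at an FDR of 0.01 and lines for medians. Between groups FRMD6 and GADD45A are called, and between replicates 10 SRF and MRTF target genes are called, all of them below 0.

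The second question was how replicate 1 differed from replicate 2 within the groups. The labels number the libraries but do not say what a number stands for. With the group as a term in the model, edgeR's quasi-likelihood test called 6 of the 10 members between the numbers, against 22.2% of all tested genes. Of these, 3 were higher in replicate 1, against 10.5% of all tested genes, and 3 were lower, against 11.7%. Both libraries of one number lay on the same side of both of the other for 6 members, against 38.2% of tested genes. These were LATS1, LATS2, AMOTL2, YAP1, WWTR1 and CYR61, while ANKRD1 and CTGF, though called, overlapped between the numbers. For 6 members the difference between replicate numbers was larger than that between the groups, against 41.9% of all tested genes. Replicate 1 was also the deeper library in both groups, so depth and whatever else the numbers stand for cannot be told apart.

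The 3 target genes were all lower in replicate 1. ANKRD1 differed by -0.90 on the log2 scale (standard error 0.07, 95% interval -1.03 to -0.77, adjusted p = 5.1e-16 in edgeR's quasi-likelihood test), by -0.88 within EV and -0.91 within FCN3 cells. CTGF differed by -0.57 (standard error 0.07, edgeR adjusted p = 1.9e-09), and its difference was -0.57 within each group. These are the same 2 genes that were farthest apart between the groups, and DESeq2 called both of them between replicate numbers too (adjusted p = 7.7e-13 and 1.3e-04), where it called 6.11% of the genes it tested. CYR61 differed by -0.20 (standard error 0.06, edgeR adjusted p = 0.0045, DESeq2 adjusted p = 0.19), with -0.34 within EV and -0.07 within FCN3 cells.

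Both coactivators and LATS1 went the other way. YAP1 was higher in replicate 1 by 0.31 on the log2 scale (standard error 0.06, edgeR adjusted p = 4.2e-05), WWTR1 by 0.21 (standard error 0.05, edgeR adjusted p = 0.0010) and LATS1 by 0.35 (standard error 0.08, edgeR adjusted p = 2.4e-04). In DESeq2 their adjusted p was 0.014, 0.027 and 0.069, none under 0.01. Each of the 3 was higher in both replicate 1 libraries than in both replicate 2 libraries. LATS2 and AMOTL2 had differences that did not pass the test (-0.18 and -0.15, edgeR adjusted p = 0.051 and 0.020), and TEAD1 and TEAD4 were at 0.07 and -0.06 (edgeR adjusted p = 0.31 and 0.58).

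**Figure D4:**
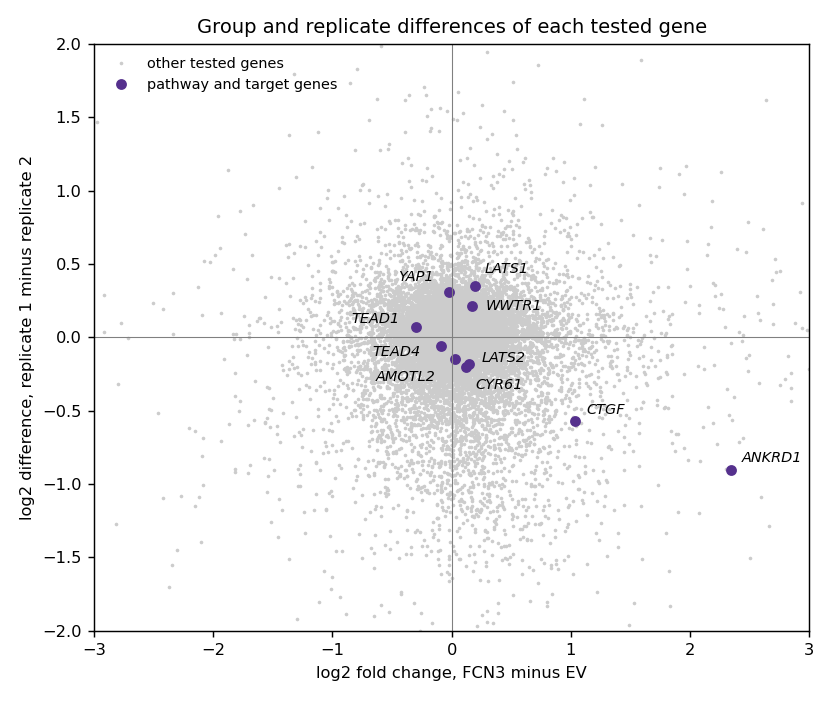
Log2 fold change between groups (x axis, FCN3 minus EV) and log2 difference between replicate numbers (y axis, replicate 1 minus replicate 2) for each tested gene, members in purple and others in grey, with 112 genes outside the drawn range. ANKRD1 and CTGF lie at the lower right, higher with the FCN3 virus and higher in replicate 2, and the other members lie near the centre.

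The lists showed where the replicate difference fell among related genes. Of the 18 SRF and MRTF targets, 10 were called and all 10 were lower in replicate 1, where 11.7% of all tested genes were called as lower, with a median of -0.19 beside 0.01 for all tested genes, and 15 of 18 were lower in replicate 1 within both groups, against 35.5% of all tested genes. MYL9, a myosin light chain named after its values were seen, was at 1.70 and 15.8 CPM in EV replicates 1 and 2, and at 1.39 and 13.8 CPM in FCN3 replicates 1 and 2 (-3.26, edgeR adjusted p = 1.0e-23). TAGLN differed by -1.55 (edgeR adjusted p = 6.5e-26), with -1.64 within EV and -1.47 within FCN3 cells. The tropomyosins TPM1 and TPM2 and the focal adhesion gene ZYX, also named after their values were seen, differed by -0.60, -0.58 and -0.56.

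The further YAP and TAZ targets were not of one direction between replicates: 4 of 17 were called as higher in replicate 1 and 5 as lower. Of all tested genes 10.5% were called as higher and 11.7% as lower. The median of the 17 was -0.0027. IGFBP3, a secreted binding protein for insulin-like growth factors, was at -0.86 on the log2 scale (lower in replicate 1), and PTPN14, which is in the target and the binding list, at 0.67 (edgeR adjusted p = 1.8e-19 and 3.8e-14). Of the kinase cassette and its activators 2 of 19 were called, both higher in replicate 1, against 10.5% of all tested genes called as higher. These were NF2 (0.23) and TAOK1 (0.35). IGFBP3, NF2 and TAOK1 were named after their values were seen. Of the YAP and TAZ binding genes 5 of 17 were called, 3 higher and 2 lower, against 22.2% of all tested genes called in either direction. WISP2, of the CCN family like CTGF and CYR61, differed by -1.05 (edgeR adjusted p = 1.8e-10).

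**Figure D5:**
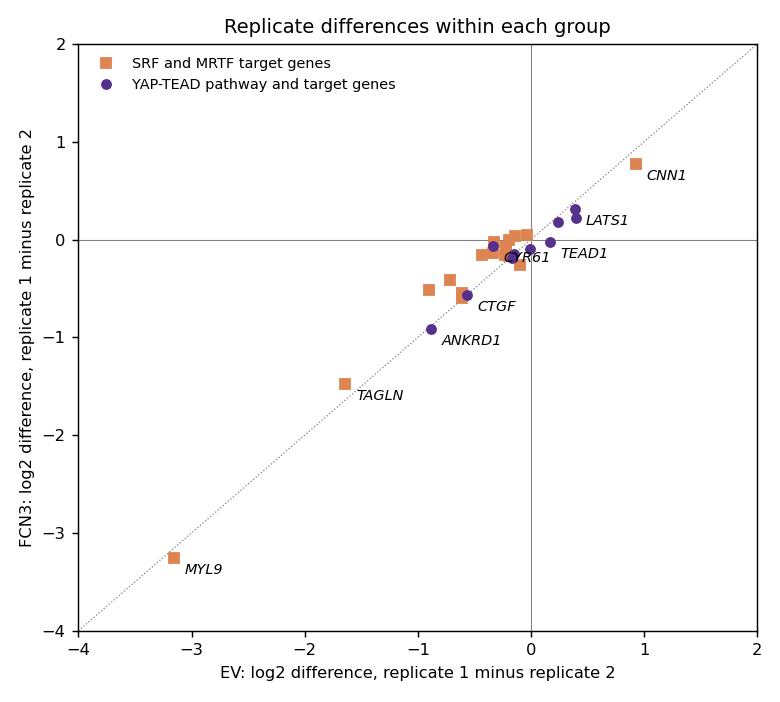
Log2 difference of replicate 1 minus replicate 2 within EV (x axis) and within FCN3 cells (y axis) for the 10 members (purple circles) and 18 SRF and MRTF target genes (orange squares), with a dotted line of equal values. ANKRD1 at -0.88 and -0.91 and CTGF at -0.57 and -0.57 lie near the line in the lower left, as do TAGLN and MYL9.

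The lowest expected count of a member in a library was 429, so low depth did not limit the detection of any member. With 2 libraries a group the smallest two-sided p of an exact permutation test of 1 gene is 0.333, so the p-values come from fits across all genes. Nothing in the labels says that the libraries came from separate cultures, so these p-values measure only the spread between the libraries, which may be technical.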

How the data were processed

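RNA of A549 cells was measured in 4 libraries, 2 per group, grouped and numbered by the sample labels. Per the study's methods the authors trimmed paired-end reads of stranded mRNA libraries, aligned them to hg19 with STAR (version 2.6.1d in the submitters' processing notes) and quantified genes with RSEM. The deposited expected counts are estimated read counts per gene without normalization. The deposited TPM values are scaled by the authors for length and depth, and were used for levels across genes and in 1 alternative. The deposited FPKM values were not used. The strand setting of the counting is not given in the sources used here.

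The counts were made whole by rounding and fitted in R 4.3.3 with edgeR 4.0.16 (TMM, filterByExpr, quasi-likelihood fit and test, Benjamini-Hochberg adjustment over 14099 genes, FDR 0.01). The model had the group alone, or the group and the replicate number where replicate numbers were compared. Standard errors are the log2 difference over the square root of F. CPM used TMM factors, and log2 CPM differences between single libraries used a prior count of 2. Depth was 16353554 to 35733735 counts per library, where 3 counts, taken as the detection floor, equal 0.0823 to 0.179 CPM, covering counting error only. The tests were checked on simulated data. In the simulated group comparison the libraries of a group differed in depth and random counts alone. Replicate differences like those found here were therefore not covered by that check.

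The members and lists were chosen with earlier results of these data known. All members were named, and from each list the called genes and the 4 largest changes with a mean log2 CPM of at least 1 (2 for the SRF and CCN lists). MAP4K6, listed with the kinases, is an older name of MINK1. Alternatives were DESeq2 1.42.0, RLE factors, FCN3 left out, other filters, limma 3.58.1 on log2(TPM + 1), FDR 0.05, a replicate block, each library left out and, for replicates, no group term. A block in DESeq2 was added after seeing the data. Gene positions come from GENCODE on GRCh37, which is hg19. RefSeq promoters are on GRCh38.p14, and no coordinates were converted.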

Additional observations from a re-analysis of the deposited data

Results flagged for a closer look

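TEAD1 is listed because replicate 1 and replicate 2 differed in opposite directions in the 2 groups: the log2 difference, replicate 1 minus replicate 2, was 0.167 in EV and -0.0254 in FCN3 cells. The difference between these values was not tested, since each value compares 1 library with 1 other. Its levels were 294 and 262 CPM in EV and 224 and 228 CPM in FCN3 replicates 1 and 2.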

How the results depend on the processing

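The number of members called between the groups, 0 in edgeR's test, was 1 at an FDR of 0.05 (ANKRD1), 2 in DESeq2 (CTGF and ANKRD1), 4 with a replicate block (WWTR1, TEAD1, CTGF and ANKRD1) and 3 with a block in DESeq2, and between 0 and 1 with each library left out, where the lone library of a group is assumed to vary like the others. It was 0 again with RLE factors, without FCN3, under both other filters and in limma on log2(TPM + 1). The block is a fit by number only, as 2 pairs and the labels do not show what the numbers share. The differences between numbers in EV and FCN3 correlated at r = 0.806 across 8310 genes, which are not independent replicates. The block moved the calls over all genes from 136 to 5103, and DESeq2 called 1046. Members called between replicate numbers, 6 in edgeR, were 2 in DESeq2, 2 in limma and 0 without the group term, where calls over all genes went from 3132 to 786, 1849 and 0. 3 members not called between the groups changed sign: AMOTL2 (0.03) was -0.071 in limma on log2(TPM + 1) and between -0.044 and 0.10 with a library left out, YAP1 (-0.02) between -0.21 and 0.21 and CYR61 (0.12) between -0.028 and 0.29. ANKRD1 stayed between 1.81 and 2.81 and CTGF between 0.72 and 1.33 in every alternative, and 103 of 120 member values between the groups and 55 of 70 between replicates kept direction and side of the threshold. A replicate comparison with a library left out has no residual spread and was not run.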
